A study of Punica granatum with 4 samples.

Results

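Leaf transcriptomes of drought-stressed pomegranate sprayed with 60 or 90 µM abscisic acid (ABA) were set against those sprayed with 0 or 30 µM. Each dose was sequenced as 1 library, so the 2 neighbouring doses on each side stand in for replicates. The genes compared were those with at least 1 CPM (the count divided by the library total and multiplied by 1e6) in at least 1 of the 4 libraries, 19286 of the 27893 features in the count table. All plants were rooted cuttings of the strain labelled Hongmanao, genotype wt, with a stated age of 180 days. Soil water was held at 30% to 35% of field capacity in every group, and 5 mL of distilled water (0 µM) or of ABA solution was sprayed each day, so the 0 µM plants were droughted as well. The labels describe RNA taken from the leaves of each plant but do not say how many plants a library holds. The spread on a side therefore includes any effect of going from 0 to 30 µM or from 60 to 90 µM, along with differences between plants and libraries, and these cannot be told apart.

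ABA is the hormone that plants accumulate in drying tissue. Binding of ABA to its receptors blocks protein phosphatases that otherwise hold a family of kinases inactive, and the released kinases act on channels that close the stomata and on transcription factors that switch on genes of water-stress protection. Sprayed ABA adds to what the droughted leaf makes itself. Genes are given by the identifiers of the count table. The gene table used for their class pairs them with no product names, so the role of single genes and the leaf identity of the tissue, which needs named markers, were not analysed here. No genome build is named for the counts, so no coordinates are given.

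Library totals ran from 22118468 to 28366719 counts, and the largest was 1.28 times the smallest. The 10 most abundant features took 3.01% to 3.57% of a library. Counts below 3 were set to 3 when gaps were ranked or summarised and when ratios within a side were plotted. This floor corresponded to 0.104 to 0.131 scaled CPM. Levels below are CPM scaled with edgeR's TMM factors, which correct for differences in library composition. The rank correlation between libraries, taken over genes that are not independent of each other, was 0.972 within the lower-dose side and 0.959 within the higher-dose side, and 0.954 to 0.962 for the 4 pairs that crossed the sides. The correlation of 60 with 90 µM lay inside the range of the pairs from opposite sides.

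A distinct set of genes stood at much higher levels in both higher-dose libraries, and few did the reverse. In 147 genes the lower of the 60 and 90 µM values was more than 2-fold above the higher of the 0 and 30 µM values, 0.762% of the genes compared. The mirror pattern, more than 2-fold lower at 60 and 90 µM, was found in 28 genes, 0.145%, which makes 0.907% in all. A gene was counted when the 95% interval of the ratio between the nearest libraries of the sides (exact Clopper-Pearson, given their summed counts) lay wholly beyond 2. This is a rule of size that covers counting error, not a test. With a 4-fold limit the counts were 30 higher and 2 lower, 0.156% and 0.0104%. Scaled by library totals in place of TMM they were 134 higher and 34 lower for 2-fold, so more genes lay in the higher set with either scaling. Fewer libraries constrain the rule less by construction. Without the 0 µM library it gave 273 higher and 144 lower genes, without the 30 µM library 328 and 147, without the 60 µM library 360 and 249, and without the 90 µM library 395 and 234.

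The balance of directions among smaller differences depended on the scaling. Sides that merely did not overlap were seen in 3719 genes that lay higher and 3761 that lay lower at 60 and 90 µM, 19.3% and 19.5% of the genes compared and 38.8% together. Scaled by library totals these were 2721 and 4816. TMM centres the bulk of the genes, and with it the median log2 difference over all genes was -0.01 (interquartile range -0.23 to 0.21), against -0.07 with library totals. Fitted folds above 2 numbered 808 higher and 673 lower, 4.19% and 3.49%, and 736 and 790 with library totals.

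**Figure D1:**
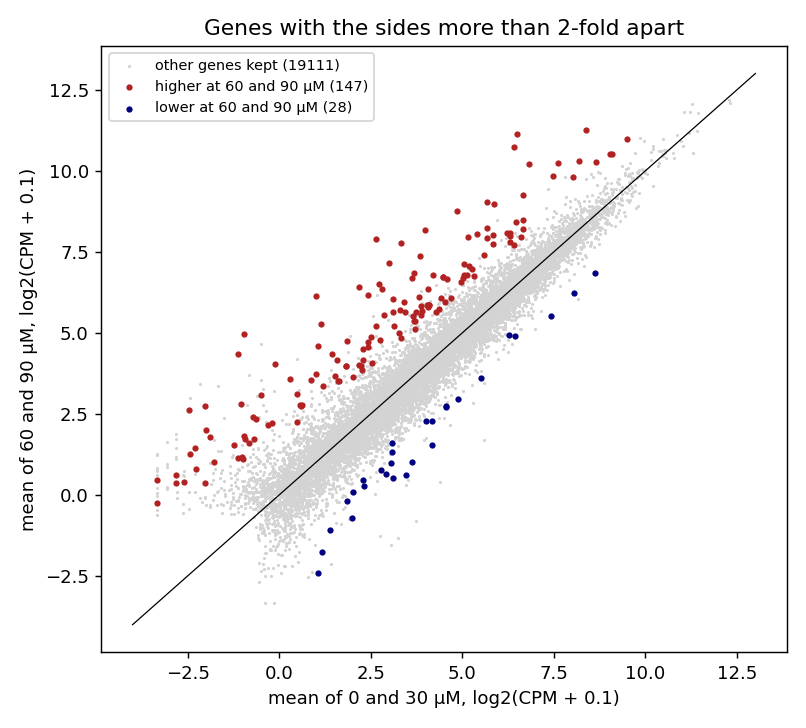
Mean level on the lower-dose side (x axis, log2 of the scaled CPM plus 0.1) against the higher-dose side (y axis, same scale) for 19286 genes, with the line of equal levels. The 147 genes more than 2-fold higher (red) lie above the line, and the 28 lower genes (blue) lie below it.

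In edgeR's quasi-likelihood test with Benjamini-Hochberg adjustment over all 19286 genes, 0 genes passed an adjusted p of 0.05 in either direction, 0% of those tested, and the smallest adjusted p was 0.0606. The fit has 2 residual degrees of freedom. Unadjusted p-values under 0.05 were found for 899 genes higher and 762 lower at 60 and 90 µM, 4.66% and 3.95% (8.61% together), beside the 964 genes that a uniform spread of p-values would give. Scaled by library totals the same count was 741 higher and 910 lower, so which direction held more genes depended on the scaling. DESeq2 on the same design called 360 genes higher and 142 lower at an adjusted p under 0.05, 1.87% and 0.736%, and gave 1821 genes (9.44%) an unadjusted p under 0.05. Limma-voom called 0 genes, and 1626 (8.43%) had an unadjusted p under 0.05. The edgeR counts at an unadjusted p under 0.05 were 557 higher and 447 lower without the 0 µM library, 600 and 331 without the 30 µM library, 1076 and 1232 without the 60 µM library, and 1041 and 1003 without the 90 µM library. A single value compared by exact permutation of 2 against 2 libraries cannot go below p = 0.333, so no such test was used for calls.

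The gene with the lowest p was LOC116192714. In order of dose, its scaled levels were 8.0, 7.88, 142 and 142 CPM. Each side was nearly flat, with 1 step between 30 and 60 µM, a log2 difference of 4.16 ± 0.16 (SE, n = 2 libraries a side; edgeR adjusted p = 0.0606). It passed 0.05 in edgeR when the filter asked for 1 CPM in every library (adjusted p = 0.0379) and when no filter on low counts was used (adjusted p = 0.0350). In limma-voom its adjusted p was 0.119, and over the edgeR fits that left out 1 library it ran from 0.126 to 0.936. The standard errors given here are those implied by the edgeR F statistic. A low p favours genes whose 2 libraries on a side agree and whose sides lie apart. Flat sides in genes picked by p thus follow in part from the choice.

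LOC116213103 had the next lowest p, with 51.2, 50.3, 531 and 518 scaled CPM at 0, 30, 60 and 90 µM. Its log2 difference was 3.37 ± 0.20 (SE, n = 2 a side; edgeR adjusted p = 0.229). As in the first gene, both sides were flat and did not overlap, which the choice by low p favours. LOC116206444 had 23.4, 34.4, 417 and 458 CPM, a log2 difference of 3.92 ± 0.28. LOC116192444 had 1.40, 2.42, 54.4 and 85.3 CPM, a log2 difference of 5.18 ± 0.41. In these 2 genes the larger dose had the larger value on each side as well, but the step between the sides was far larger than either. LOC116206587 had 9.67, 15.1, 93.8 and 112 CPM, a log2 difference of 3.05 ± 0.28. LOC116186995 had 46.2, 56.6, 317 and 282 CPM, a log2 difference of 2.54 ± 0.21. LOC116188085 had 10.7, 10.2, 70.6 and 51.7 CPM, a log2 difference of 2.55 ± 0.21. The last 2 were highest at 60 µM and lower at 90 µM, without overlap with the lower doses. LOC116188741 showed a smaller step, from 37.2 and 40.1 CPM to 121 and 127 CPM, a log2 difference of 1.68 ± 0.15. The edgeR adjusted p was 0.346 for each of the 6 genes after LOC116213103. DESeq2 called all 8, but they were picked by p from the same libraries, so its calls are no separate support.

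**Figure D2:**
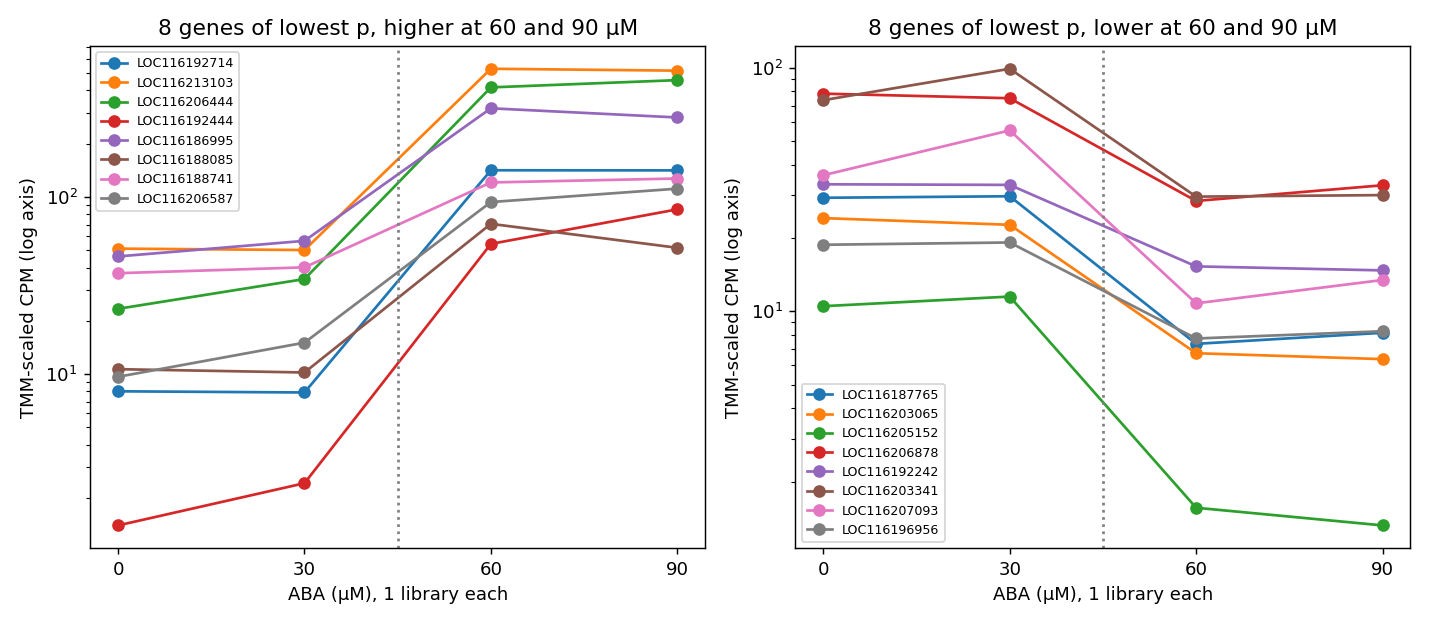
Scaled CPM (log axis) at each ABA dose, 1 library a dose, for the 8 genes of lowest p in each direction; the dotted line parts the lower from the higher doses. LOC116192714 steps from 8.0 and 7.88 to 142 and 142 CPM, while LOC116187765 steps down from 29.3 and 29.7 to 7.35 and 8.16 CPM.

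Among the genes that lay lower at 60 and 90 µM, LOC116187765 had the lowest p. It had 29.3, 29.7, 7.35 and 8.16 scaled CPM at 0, 30, 60 and 90 µM, a log2 difference of -1.93 ± 0.17 (SE, n = 2 a side; edgeR adjusted p = 0.346). LOC116203065 had 24.1, 22.7, 6.73 and 6.36 CPM, a log2 difference of -1.84 ± 0.18. Both were flat within each side, which the choice by low p favours. LOC116205152 had 10.5, 11.5, 1.56 and 1.32 CPM, a log2 difference of -2.93 ± 0.29, which was among the widest gaps downward, 6.73-fold between the nearest libraries. LOC116206878 had 78.3, 75.01, 28.4 and 32.9 CPM, a log2 difference of -1.32 ± 0.15. The gap in LOC116206878 was 2.28-fold between the nearest libraries, the narrowest of the 28. LOC116203341 had 73.7, 99.1, 29.6 and 30.01 CPM, and LOC116207093 had 36.2, 55.3, 10.8 and 13.4 CPM. In these 2 genes the 30 µM library held the highest value. LOC116192242 had 33.2, 33.1, 15.3 and 14.7 CPM and LOC116196956 had 18.8, 19.2, 7.73 and 8.28 CPM, log2 differences of -1.14 ± 0.15 and -1.24 ± 0.18. Their sides did not overlap, but the interval of the nearest ratio did not clear 2. The edgeR adjusted p of the 8 lower genes ran from 0.346 to 0.379. DESeq2 called each of them, which is no separate support for genes picked by p from the same libraries.

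The 6 widest gaps upward ran from genes with almost no reads at the lower doses to abundant ones. LOC116213164 had 1, 3, 196 and 130 counts at 0, 30, 60 and 90 µM, 42.2-fold between the nearest libraries at 30 and 90 µM. LOC116187191 had 2.76, 9.65, 240 and 234 scaled CPM, a 24.2-fold gap and a log2 difference of 5.25 ± 0.67. LOC116192444 and LOC116192714, described above, followed with 22.5-fold and 17.7-fold. LOC116194625 had 3, 4, 306 and 68 counts, so its 2 higher-dose libraries differed strongly from each other, and the gap was 16.6-fold. LOC116194260, with 1223, 3052, 72755 and 49386 counts, had a 15.8-fold gap. The log2 difference without the 30 µM library was 6.96 for LOC116213164, against 6.07 with it, 6.43 for LOC116187191 and 5.40 for LOC116194260, against 4.65 with it. Without the 60 and the 90 µM library that of LOC116194625 was 4.15 and 6.12, against 5.45 with both. Of the 147 higher genes, 28 had under 1 CPM in both lower-dose libraries, and 5 had a library without any count. The median gap between the nearest libraries was 3.46-fold over the 147 genes, and 36 had a fitted fold over 10.

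Most of the widest gaps downward were in genes with few reads. LOC116211364 had 48, 45, 5 and 0 counts, 10.7-fold between the nearest libraries at 30 and 60 µM, and LOC116194800 had 49, 52, 1 and 9. LOC116212987 stood higher, with 250, 332, 38 and 64 counts and a log2 difference of -2.66 ± 0.43. LOC116214868 had 19, 25, 5 and 0 counts and LOC116187208 had 23, 37, 3 and 6, too few for the interval to clear 2. Leaving out the 60 or the 90 µM library moved these few-read genes, to log2 differences of -8.57 and -3.47 for LOC116211364, -2.55 and -5.76 for LOC116194800, -7.49 and -2.39 for LOC116214868, and -2.37 and -3.54 for LOC116187208. The median gap over the 28 lower genes was 3.20-fold, 5 of them were under 1 CPM in both higher-dose libraries, and 2 had a fitted fold over 10.

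Several of the most abundant transcripts were in the higher set. Of the 100 genes with the most counts (not corrected for gene length), 10 were among the 147 higher genes and 0 among the 28 lower ones, beside 0.762% and 0.145% of all genes. At the background share of the lower set, a 0 in 100 genes says nothing about it. The ranking used the counts of all 4 libraries, so a gene could enter it through its values at 60 and 90 µM, and the counts of members are a description. LOC116194260 had 53.5, 125, 2523 and 1976 scaled CPM at 0, 30, 60 and 90 µM, a log2 difference of 4.65 ± 0.56 (SE, n = 2 a side; edgeR adjusted p = 0.346). LOC116187230 had 107, 63.6, 1560 and 1836 CPM, a log2 difference of 4.32 ± 0.40 (edgeR adjusted p = 0.346). By mean count over the libraries these 2 genes ranked 33 and 47, with nearly all of their counts from the higher doses. LOC116197583 had 147, 79.4, 1797 and 593 CPM, so the 60 µM library stood well above the 90 µM library. Its log2 difference was 3.40 ± 0.69, with 2.39 when the 60 µM library was left out and 3.99 when the 90 µM library was.

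Other abundant members were already well expressed at the lower doses. LOC116195363 had 249, 419, 2350 and 2563 CPM, a log2 difference of 2.88 ± 0.39, and held the highest place by mean count, rank 21. LOC116214825 had 784, 650, 2061 and 1998 CPM, a log2 difference of 1.501 ± 0.28. LOC116195364 had 119, 270, 718 and 1696 CPM and was higher at each larger dose. LOC116204580 had 416, 387, 853 and 1618 CPM and lay just inside the 2-fold limit, its nearest ratio of 2.05 having an interval from 2.004 to 2.10. LOC116189342 lay just outside, with 358, 408, 953 and 833 CPM and an interval from 1.99 to 2.09. On the lower side the limit ran between LOC116209114 (interval 2.01 to 2.95) and LOC116213317 (1.99 to 3.91).

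**Figure D3:**
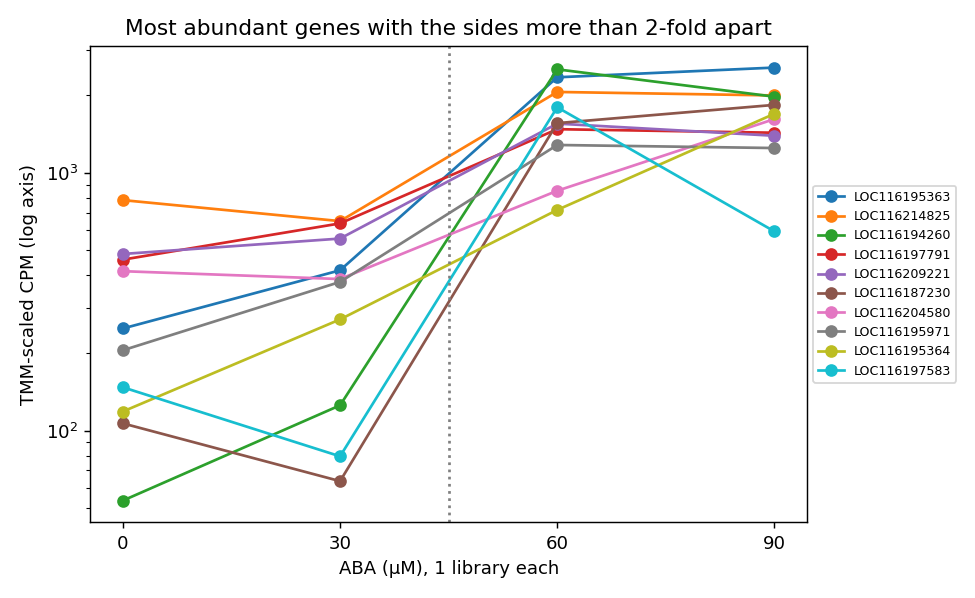
Scaled CPM (log axis) by ABA dose, 1 library a dose, for the 10 genes among the 100 with the most counts whose sides were more than 2-fold apart; all 10 lay higher at 60 and 90 µM. LOC116194260 runs from 53.5 and 125 to 2523 and 1976 CPM.

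Abundant genes that lay lower at the higher doses had small differences. LOC116201371 had 695, 1068, 462 and 503 CPM, a log2 difference of -0.87 ± 0.30 (SE, n = 2 a side; edgeR adjusted p = 0.545). LOC116212433 had 2529, 2460.3, 1152 and 1845 CPM, and LOC116215544 had 1166, 1177, 462 and 1001 CPM. In the latter 2 the 60 µM library held the low value, and the 90 µM library stood closer to the lower doses. Without the 60 µM library the log2 difference of LOC116215544 was -0.23, and without the 90 µM library -1.34, against -0.68 with both.

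By mean count over the 4 libraries, 12 of the 256 genes with 10000 or more counts were in the higher set, 4.69% beside 0.762% of all genes, and 0 in the lower set, whose share of all genes was 0.145%. Of the 6372 genes with 1000 up to 10000 counts, 48 were higher and 5 lower, 0.753% and 0.0785%. Of the 9490 genes with 100 up to 1000 counts, 59 were higher and 15 lower, 0.622% and 0.158%. Of the 3168 genes under 100 counts, 28 were higher and 8 lower, 0.884% and 0.253%. In these 3 classes the higher share was thus near that of all genes, and the lower share fell as counts grew. Intervals narrow as counts grow, which makes the rule easier to meet at high counts in either direction, and the higher-dose values of the higher genes raise the mean by which they were classed.

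Taken as 1 sum, the 147 higher genes took 0.579% of the 0 µM library, 0.667% of the 30 µM library, 2.98% of the 60 µM library and 2.79% of the 90 µM library. The exact 95% binomial intervals, which cover counting error only, were 0.576% to 0.582% at 0 µM and 2.79% to 2.80% at 90 µM. The 5 members with the most counts made up 31.5% to 36.3% of that sum, and without them the remaining members still took 0.369%, 0.425%, 1.97% and 1.91% of the libraries. The 28 lower genes took 0.129%, 0.130%, 0.0328% and 0.0378%. The genes were chosen on these counts, so the sums describe the size of the sets and are not evidence for a difference.

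**Figure D4:**
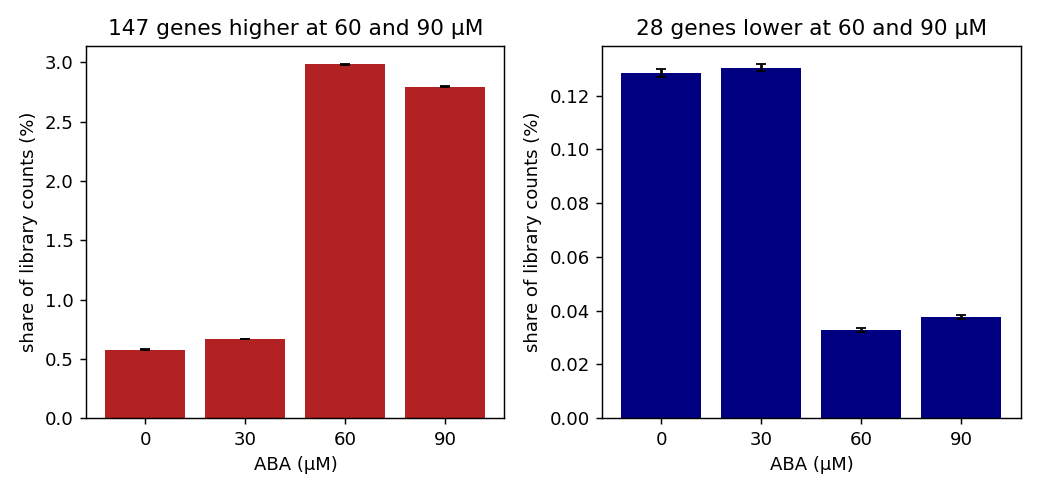
Share of all counts in each library (percent, axes from 0) taken by the 147 higher genes (left) and the 28 lower genes (right), with exact 95% binomial intervals as error bars. The left bars run from 0.579% and 0.667% to 2.98% and 2.79%, and the right bars from 0.129% and 0.130% to 0.0328% and 0.0378%.

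Most of these genes did not stand in a full order of dose, and most had no difference beyond 2-fold within a side. Neither is particular to them. Sides that do not overlap leave only 4 orders of the libraries, so a full order is a minority in most such sets. Most of all genes compared also had no difference beyond 2-fold within a side, and the share with one was larger in the higher set, as given below. In 113 of the 147 higher genes neither side had a difference of its own beyond 2-fold, by the same interval rule. The level at 90 µM was above that at 60 µM in 80 of the 147, and the level at 30 µM above that at 0 µM in 82. A full order of 0, 30, 60 and 90 µM from low to high was seen in 44 genes, 29.9%, beside 25.6% of all 3719 genes that lay higher without overlap. The other 3 orders held 40, 36 and 27 genes, or 27.2%, 24.5% and 18.4%, beside 22.3%, 27.6% and 24.5% of the 3719. The median ratio of 30 over 0 µM was 1.06 and of 90 over 60 µM 1.05. Among the 28 lower genes, 25 had no difference beyond 2-fold within a side. A full descending order of dose was seen in 4, 14.3%, beside 22.5% of all 3761 genes that lay lower without overlap.

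The exceptions show genes whose levels also parted within a side. Beyond 2-fold, 30 µM lay above 0 µM in 9 of the 147 higher genes and below it in 5, and 90 µM lay above 60 µM in 13 and below it in 10. Over all 19286 genes the same rule gave 316 and 385 for the first pair, and 659 and 805 for the second. Each such difference thus took a larger share of the higher set than of all genes. LOC116211169 had 3.59, 16.2, 193 and 246 CPM in order of dose, so its level at 30 µM was 4.52-fold that at 0 µM before the larger step. LOC116194361 had 1, 19, 289 and 1294 counts, higher at each larger dose. LOC116202733 peaked at 60 µM, with 10, 7, 1122 and 46 counts, and its place in the set rests on the small value at 90 µM. LOC116192433 had a like peak, with 2.41, 6.49, 147 and 23.9 CPM. LOC116215326 dipped at 30 µM, with 8.44, 2.09, 24.97 and 22.3 CPM. Of the lower genes, LOC116194456 was lowest at 60 µM, with 429, 413, 15 and 129 counts, and LOC116189727 at 90 µM, with 204, 200, 74 and 3 counts.

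**Figure D5:**
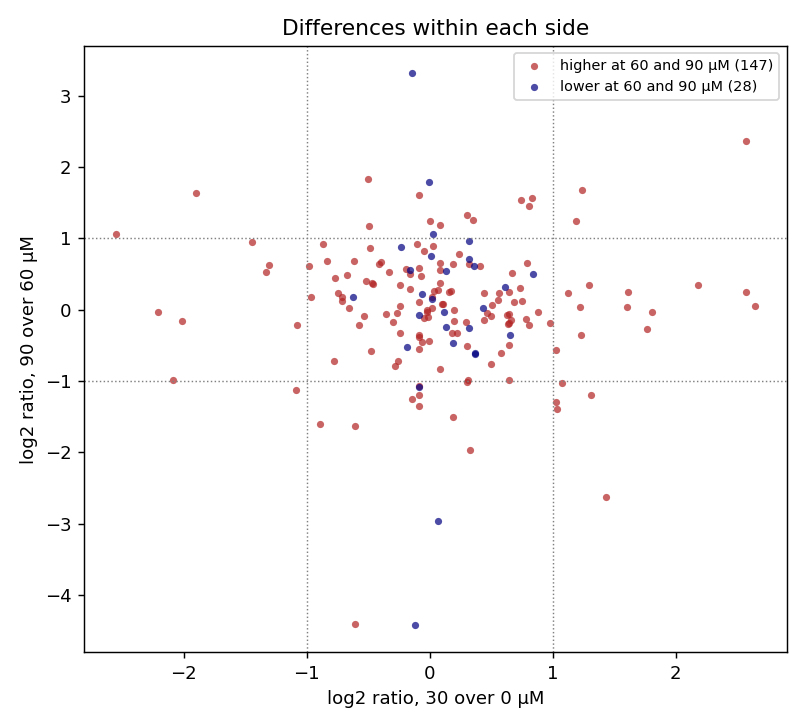
Log2 ratio of 30 over 0 µM (x axis) against 90 over 60 µM (y axis) for the 147 higher (red) and 28 lower (blue) genes. Values below 3 counts are set to 3 counts, and dotted lines mark 2-fold. Most points lie inside the 2-fold square, and 113 of the 147 higher genes had no difference beyond 2-fold on either side. Most of all genes compared had none either.

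Among genes whose sides overlapped, the largest fitted differences came from genes that 1 library decided. LOC116195203 had 0, 0, 0 and 114 counts and LOC116208818 had 0, 0, 0 and 83, with reads at 90 µM alone. LOC116209816, an lncRNA gene, had 97 counts at 60 µM and 0 elsewhere. In the other direction LOC116191974 had 592, 9, 17 and 9 counts, LOC116206287 had 74, 1, 3 and 1, and LOC116215074 had 37, 0, 0 and 0. The latter 3 set the 0 µM library apart from all ABA libraries and not the lower from the higher doses. Their edgeR adjusted p ran from 0.605 to 0.684, and that of the former 3 from 0.673 to 0.682.

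By the rule, the genes parted 2 against 2 are a part of the list of every pair that crosses the sides. They were a minority of each of these lists. Of the genes more than 2-fold higher at the larger dose, the 147 made up 21.4% of the 688 for 60 against 0 µM, 20.1% of the 732 for 90 against 0 µM, 17.7% of the 830 for 60 against 30 µM and 23.8% of the 617 for 90 against 30 µM. The 28 lower genes made up 3.54% to 4.92% of the lower lists of those pairs, which held 569 to 790 genes. Within the sides, 30 against 0 µM parted 316 genes upward and 385 downward by more than 2-fold, and 90 against 60 µM parted 659 and 805. These differences between neighbouring doses enter the spread against which edgeR tested the sides.

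Genes that adjoin each other in the annotation appeared together 6 times in the higher set, as 6 pairs with 12 genes, and 0 times in the lower set. The number of pairs that sets of these sizes would give was not worked out, so the 6 is a description only. With 27 lower genes placed on chromosomes, a 0 says nothing about the lower set. The pair LOC116187190 and LOC116187191 had the widest steps. LOC116187190 had 11.8, 19.8, 147 and 426 CPM, and its neighbour had 2.76, 9.65, 240 and 234. LOC116213103, described above, adjoins LOC116212830, which had 79.8, 123, 628 and 598 CPM. LOC116200894 had 8.40, 5.50, 123 and 39.6 CPM, and its neighbour LOC116200895 had 3.15, 2.59, 22.4 and 12.97. The first of these pairs parted at 90 µM, where 1 member was higher and the other level with 60 µM, while both members of the third were lower at 90 than at 60 µM. Adjoining genes can be near-identical copies or overlap, and reads shared between them could have been split, so their separate levels are uncertain.

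By class, 144 of the 147 higher genes and all 28 lower genes were protein-coding, out of 18575 protein-coding genes compared. The 3 lncRNA genes in the higher set made up 0.439% of the 684 lncRNA genes, beside 0.775% of protein-coding genes. LOC116208249 was the most abundant of the 3, with 39.6, 25.8, 107 and 172 CPM at 0, 30, 60 and 90 µM. LOC116194322 had 9.49, 7.92, 46.1 and 28.01 CPM, and LOC116213866 had 7, 12, 60 and 56 counts. All 3 lay without overlap between the sides. The median log2 difference was -0.04 over lncRNA genes, beside -0.01 over all genes, and an unadjusted edgeR p under 0.05 was found for 20 lncRNA genes in the higher and 10 in the lower direction, 2.92% and 1.46% of the class beside 4.66% and 3.95% of all genes.

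Of the 11 rRNA features compared, the components of ribosomes, 10 had a negative log2 difference (90.9% beside 50.7% of all genes), with a median log2 difference of -0.45, and none had an unadjusted edgeR p under 0.05. The class took 0.334% and 0.228% of the lower-dose libraries and 0.243% and 0.146% of the higher-dose ones, so its sides overlapped. Among 13 snoRNA genes, whose products guide modification of rRNA, 10 had a negative log2 difference (76.9%) and the median was -0.24. LOC116198344, with 15.2, 13.2, 8.81 and 6.28 CPM, was the single snoRNA gene with an unadjusted edgeR p under 0.05 (edgeR adjusted p = 0.469). The 3 snRNA genes had a median of -0.30, with 1 of them lower without overlap between the sides, beside 19.5% of all genes. None of these 27 features was more than 2-fold apart, beside 0.907% of all genes. With so few features this says nothing about the classes.

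At the 1 CPM limit for comparison, LOC116194611 and LOC116201775 entered with a highest level of 1.02 CPM, and LOC116186963 and LOC116189140 were left out at 0.998 CPM. LOC116201775 had 2, 5, 18 and 27 counts, which shows how few reads a gene near this limit holds.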

How the data were processed

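RNA sequencing counts from leaves of 4 groups of droughted pomegranate plants were used, 1 library a dose. The deposited table holds raw counts of reads per gene, as whole numbers without normalization by the authors. Per the submitters' processing notes, FastQC, HISAT2 and featureCounts were used. Tool versions, build, strandedness and the handling of multi-mapped reads were not given in the sources used here. Genes antisense to or overlapping others therefore cannot be told apart. Columns of other samples numbered 0. Identifiers matched a symbol of the RefSeq table for ASM765513v2 in 27509 cases and a locus tag in 37, and 347 did not match. Planned lists by protein motif, promoter motif and product keyword could not be filled, because no sequences or product names were used here, so no list of that kind is described.

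The members and lists were chosen with earlier results of these data known. The 4 libraries were fitted in R 4.3.3 with edgeR 4.0.16 (TMM scaling, glmQLFit and glmQLFTest, 2 residual degrees of freedom), with DESeq2 1.42.0 and limma 3.58.1 voom as alternatives. P-values measure the spread between these libraries, doses included; the common biological coefficient of variation was 0.305. Fitted log2 values use edgeR's prior count of 0.125. In order of dose, library totals were 22118468, 24052618, 28366719 and 26590290 counts. PCR duplicates without molecular identifiers are not independent molecules, so intervals and floors cover counting error only. Named genes were the 8 of lowest p and the 6 widest gaps per direction, the 3 largest folds without overlap per direction among the 100 genes with the most counts, and the 3 largest folds with overlap; examples of differences within a side, of adjoining pairs, of classes and of genes at a limit were named after their values were seen. Each method was tested on simulated counts.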

Additional observations from a re-analysis of the deposited data

How the results depend on the processing

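No paired analysis was possible because each dose was 1 library and the sides held different doses. For genes at an adjusted p under 0.05, edgeR called 1 gene higher with no filter on low values and 1 when every library had to reach 1 CPM, LOC116192714 in each case, against 0 as reported, while DESeq2 called 360 higher and 142 lower. The cause was not tested. When every library had to reach 1 CPM, 113 higher and 18 lower genes were more than 2-fold apart (111 and 18 protein-coding), against 147 and 28 as reported. This filter drops the genes near 0 on 1 side. The counts were 30 higher and 2 lower with a 4-fold limit, and 344 and 155 with a 1.5-fold limit. The 1.5-fold limit was chosen after seeing the data, as were the other scalings for sides that do not overlap. Over the fits that left out 1 library, the counts more than 2-fold apart ran from 273 to 395 higher and from 144 to 249 lower, the rule having fewer libraries to satisfy. At an unadjusted p under 0.05 they ran from 557 to 1076 higher and from 331 to 1232 lower. Leaving a side with 1 library assumes that it varies like the others. The fits that left out 1 library ran from -5.74 to 0.36 for the log2 difference of LOC116191974 and from -5.36 to 0.77 for LOC116206287, positive without the 0 µM library. They ran from 0, without the only library with reads, to 9.78 for LOC116195203, 9.42 for LOC116209816 and 9.32 for LOC116208818, and from -8.37 to 0 for LOC116215074. Of the 36 genes named by rule, the other 30 kept their direction under the 11 alternatives run where they were fitted. Their sides did not overlap, which all but fixes the direction when 1 library is left out, so this is no sign of robustness. The genes that did not keep it were picked for sides that overlap. Of the 36, 16 had a fold that moved by over 1.5 times when 1 library was left out. Genes named after their values were seen were not refitted singly. The median over all genes was -0.07 when scaled by total counts, against -0.01 with TMM.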
